A study of Caenorhabditis elegans with 6 samples.

Results

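The UDP-glucuronosyltransferase (ugt) genes were examined in embryos of Caenorhabditis elegans with and without a cluster of microRNAs. A gene was taken when the deposited table gave a probe set exactly 1 gene and that symbol was ugt- followed by a number, and where a gene had several such probe sets the brightest one on average was used. This gave 62 genes of 17337 measured. The 6 Affymetrix arrays carried RNA of whole mixed-stage embryos. The mir-35-41(nDf50) mutant, strain VT2935 lacking nEx1187, gave 3 arrays, and wild type, strain N2, gave 3. In both groups, worms had been kept on plates enriched with egg yolk and moved from 20 to 25 °C for the last 24 hours, and their embryos were isolated with hypochlorite. The labels do not say what nEx1187 carried, how the stages were mixed within a sample, or whether replicates were separate cultures. The p-values therefore set each group difference against the scatter of these samples, and that scatter may be technical. Free-text descriptions of the samples also name early stages in terms used for fly embryos, one for mutant replicates 1 and 2 and another for the other 4 arrays, which goes against the mixed-stage label and was not used. Every value below rests on 3 arrays a group, and this small number bounds the precision.

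Enzymes of this family sit in the membrane of the endoplasmic reticulum and join a sugar, taken from a UDP-sugar donor, to small fat-soluble molecules, which makes them easier to excrete. They follow the cytochrome P450 enzymes in the handling of foreign compounds and also act on the animal's own hormones, pigments and lipids. In mammals the sugar is mostly glucuronic acid, whereas worms are known to make glucose conjugates of foreign compounds, so the family's name does not fix the sugar used. The worm family is large, many members lie next to each other in the genome, and many are active in the intestine. For most single members no substrate can be given here as background.

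As a family the ugt genes had nearly the same median difference as all genes, and a similar share of calls. Of the 62 genes, 3 were higher in the mutant and 0 were lower at an adjusted p under 0.05 (limma, with the Benjamini-Hochberg method over all genes), which is 4.84% of the family against 3.67% of all genes. By direction, 3.03% of all genes were higher and 0.646% lower. The median difference of the 62 genes, mutant minus wild type on the log2 scale, was -0.04, and that of all genes was -0.05. Their lower and upper quartiles were -0.16 and 0.08, against -0.18 and 0.09 for all genes. Without the adjustment, 9 members were higher and 7 lower at p under 0.05 in the same limma fit, 25.8% of the family against 19.7% of all genes, of which 10% were higher and 9.67% lower. The arrays of the groups did not overlap for 18 members, 9 with the mutant above and 9 with the mutant below, which is 29.0% against 24.4% of all genes, 11.0% above and 13.4% below. Differences ranged from -1.03 for ugt-62 to 1.37 for ugt-18, and 41 members differed by less than 0.25 either way. The 95% interval of each gene, taken singly, stayed within a 2-fold change in both directions for 53 members. The other 9 were ugt-18, ugt-44, ugt-13, ugt-64, ugt-17 and ugt-6 on the positive side and ugt-62, ugt-53 and ugt-45 on the negative side.

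**Figure D1:**
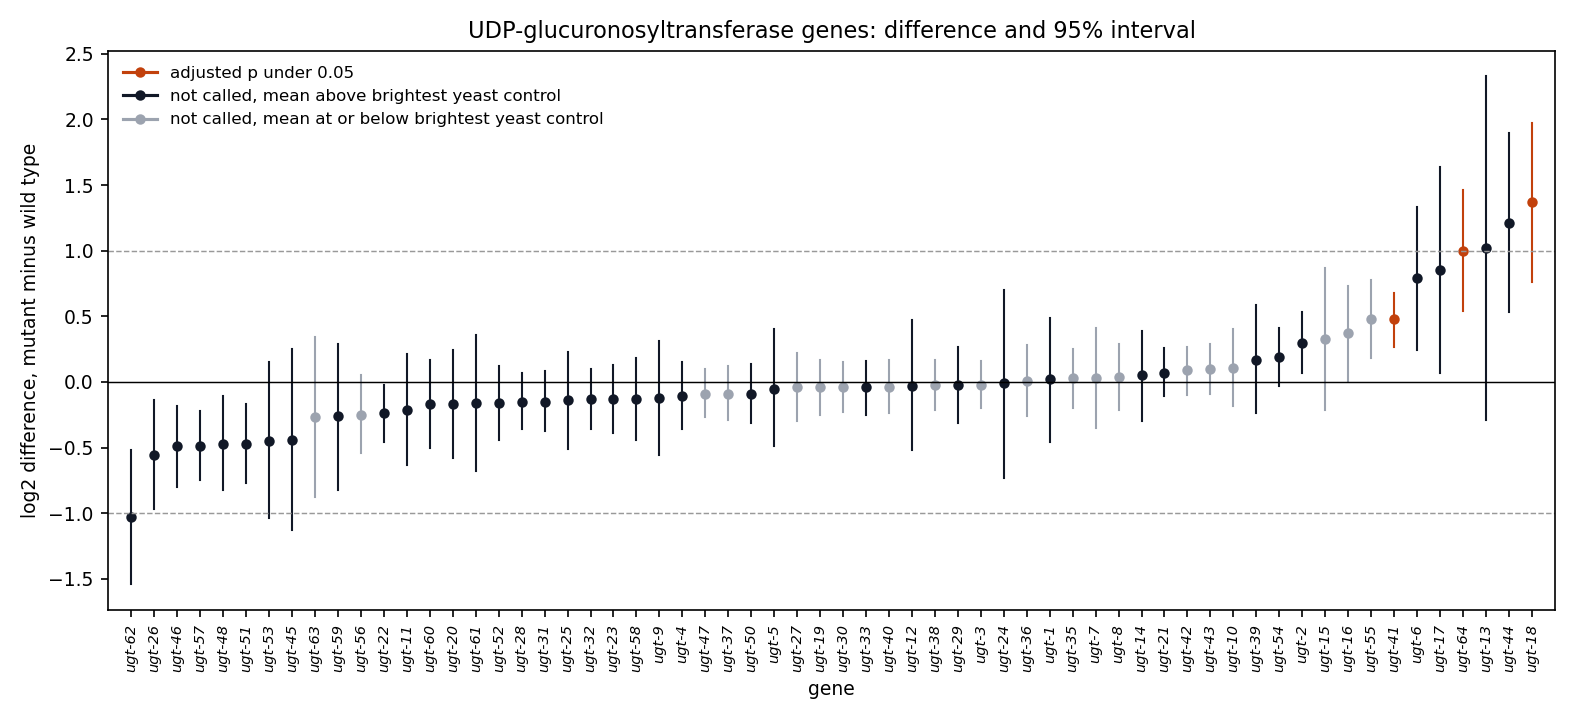
Each point is the log2 difference, mutant minus wild type, of 1 of the 62 ugt genes, with its 95% interval from limma (n = 3 arrays a group), ordered from lowest to highest. Dashed lines mark a 2-fold change. Most intervals include 0, 53 stay within the dashed lines, and the 3 genes past the threshold are coloured.

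Intensity sets a limit for some members. The arrays hold 5 probe sets for yeast transcripts that worms lack, and the brightest of these had intensities of 36.3 to 46.7 over the arrays. The mean over the 6 arrays was no higher than the mean of that control for 21 of the 62 ugt genes, or 33.9%, against 32.0% of all genes. These 21 genes had differences between -0.27 and 0.48, and 1 of them passed the threshold. Their median difference was 0.01, while that of the other 41 members was -0.13. Whether such a gene was off or its probes respond poorly cannot be told apart, and a true change could be understated.

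The 3 genes that rose were ugt-18, ugt-64 and ugt-41. The probe set of ugt-18 gave 70.5, 144.5 and 122.8 in the mutant and 39.5, 41.0 and 45 in wild type, in the order of replicates 1, 2 and 3, as for all genes that follow. The groups did not overlap, the wild type arrays lay close together near the level of the yeast controls, and mutant replicate 1 was the lowest of the mutant arrays. The difference was 1.37 (SE 0.25, limma adjusted p = 0.0385), or 2.58-fold.

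For ugt-64 the intensities were 301.7, 207.4 and 187.3 in the mutant and 114.4, 99.3 and 127.8 in wild type. Here mutant replicate 1 was the highest of all 6, the reverse of its place for ugt-18, and every mutant array lay above every wild type array. The difference was 1.00 (SE 0.19, limma adjusted p = 0.0427), or 2.01-fold. Its probe set carries the array maker's mark for probes that can match more than 1 transcript, called a shared kind below, and other transcripts may add to its signal.

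The third gene, ugt-41, is a dim one. It had 22.4, 25.3 and 23.1 in the mutant and 17.4, 16.3 and 17.1 in wild type, with no overlap and little spread. The difference was 0.48 (SE 0.09, limma adjusted p = 0.0367), or 1.39-fold, but both groups lay below the brightest yeast control, so neither shows clear signal.

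These calls depended on the arrays. Without mutant replicate 1, 6 members were higher and 3 lower, the risers being ugt-6, ugt-18, ugt-41, ugt-44, ugt-55 and ugt-64 and the others ugt-53, ugt-57 and ugt-62, while 1970 genes, or 11.4%, passed over the whole table. Leaving out mutant replicate 2 or 3, or wild type replicate 1, 2 or 3, left no ugt gene past the threshold, while 84 to 424 genes still passed over the whole table. The difference of ugt-18 stayed between 1.16 and 1.67 over these 6 fits, that of ugt-64 between 0.80 and 1.14, and that of ugt-41 between 0.42 and 0.51. A pseudocount of 16 before log2 also left none, quantile normalization left out ugt-64 (adjusted p = 0.0583), and centring each array on its median left out ugt-41 (adjusted p = 0.068).

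Further positive differences missed the threshold. ugt-44 had 64.2, 104.4 and 108.3 in the mutant and 31, 33.2 and 56.5 in wild type. Every mutant array lay above the wild type arrays, and 2 wild type arrays were below the yeast control level, so the difference of 1.21 (SE 0.29, limma adjusted p = 0.0755) may be understated. For ugt-6, on a shared kind of probe set, the mutant arrays gave 58.1, 87.3 and 89.1 and the wild type arrays 33.7, 51.5 and 50.6, with no overlap and a difference of 0.79 (SE 0.23, limma adjusted p = 0.12).

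The groups overlapped for the others of this set. ugt-17, also on a shared kind of probe set, had 220.5, 339.7 and 326.6 in the mutant and 99.0, 177.9 and 235.8 in wild type. Wild type replicate 3 lay above mutant replicate 1, and ugt-17 differed by 0.85 (95% interval 0.07 to 1.64, limma adjusted p = 0.219). Its difference ran from 0.50 without wild type replicate 1 to 1.13 without wild type replicate 3. It passed under 3 of 17 alternative settings. These were a block for the replicate number (0.85, limma adjusted p = 0.0485), leaving out both arrays numbered 1 (0.70, limma adjusted p = 0.0255) and array weights (0.90, limma adjusted p = 0.0222).

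The most variable member was ugt-13, with 239.1, 92.4 and 110.9 in the mutant and 106.5, 92.1 and 29.9 in wild type. The difference of 1.02 had the highest SE of the family, 0.55 (limma adjusted p = 0.374). It came from a high mutant replicate 1 and a low wild type replicate 3, while the other 4 arrays lay between 92.1 and 110.9. Without wild type replicate 3 it was 0.45, and without mutant replicate 1 it was 0.61.

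**Figure D2:**
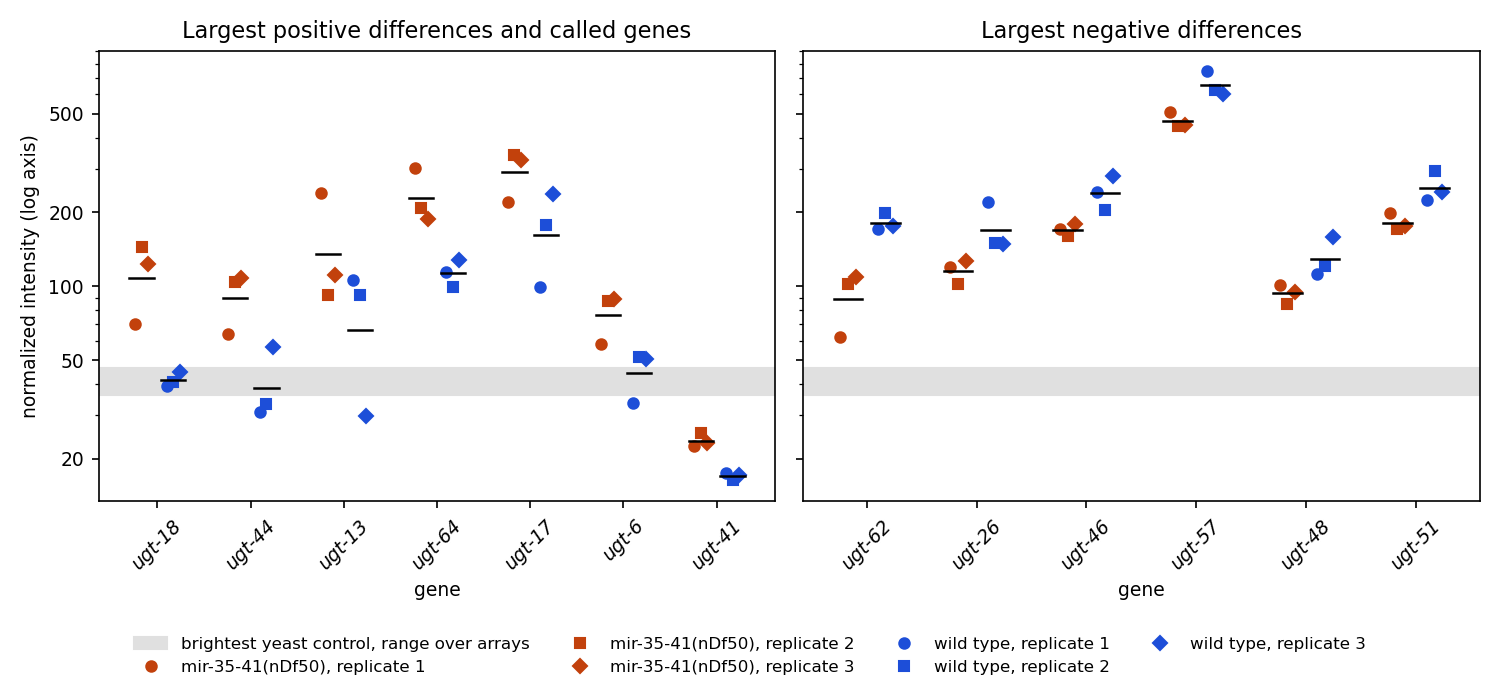
Normalized intensity on a log axis for the 7 ugt genes with the largest positive differences or a call (left) and the 6 with the largest negative differences (right), mutant left of wild type for each gene. Points are single arrays, shaped by replicate number, black lines are means of log2 values, and the grey band is the 36.3 to 46.7 of the brightest yeast control. Mutant and wild type points separate for every gene shown other than ugt-13 and ugt-17.

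No ugt gene was lower past the threshold, by limma's adjusted p. The largest negative difference was that of ugt-62, which had 62.5, 102.4 and 109.4 in the mutant and 170.1, 197.7 and 176.2 in wild type. The groups did not overlap, and mutant replicate 1 was the lowest array. ugt-62 differed by -1.03 (95% interval -1.54 to -0.52, limma adjusted p = 0.0532). Under 9 of 17 alternative settings ugt-62 passed, and leaving out mutant replicate 1 gave -0.77 (limma adjusted p = 0.0091).

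The next 5 were smaller, at 1.38-fold to 1.47-fold lower, and none of their groups overlapped. ugt-26 had 120.1, 101.7 and 126.4 in the mutant and 219.8, 150.4 and 148.4 in wild type, a difference of -0.56 (SE 0.18, limma adjusted p = 0.145). The mutant values lay close together, and wild type replicate 1 was the highest.

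For ugt-57 the mutant arrays gave 509.2, 446.9 and 449.7 and the wild type arrays 745.6, 623.3 and 604.6. Both groups lay far above the yeast controls and did not overlap, and the difference was -0.49 (SE 0.11, limma adjusted p = 0.0706).

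ugt-46 differed by -0.49 (SE 0.13, limma adjusted p = 0.0976), with 170.0, 160.6 and 179.5 in the mutant and 241.0, 203.0 and 279.4 in wild type. A second probe set of ugt-46 gave -0.41, the same sign, and both are of a shared kind.

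ugt-51, also measured by a shared kind of probe set, had 198.3, 170.5 and 176.3 in the mutant and 224.1, 294.7 and 240.7 in wild type, a difference of -0.47 (SE 0.13, limma adjusted p = 0.1). ugt-48 had 101.2, 84.9 and 95.1 in the mutant and 112.3, 121.2 and 158.9 in wild type, a difference of -0.47 (SE 0.15, limma adjusted p = 0.147). Its second, dimmer probe set, of a shared kind, gave -0.82, with 59.4, 48.8 and 53.7 in the mutant against 73.9, 93.8 and 123.4 in wild type. In both genes the highest mutant array lay below the lowest wild type array.

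Of the 6 probe sets with the highest intensities in the family, that of ugt-57, described above, differed by -0.49, and the other 5 differed by between -0.17 and -0.05. An intensity also depends on how well a probe set binds, so it does not rank transcripts of different genes. The probe sets used for ugt-50, ugt-58, ugt-60 and ugt-5 are of a shared kind, so other transcripts may add to their signal. ugt-50 had 1363.8, 1515.0 and 1323.7 in the mutant and 1462.1, 1410.8 and 1593.0 in wild type, with overlapping groups and a difference of -0.09 (95% interval -0.31 to 0.14). The other 2 probe sets of ugt-50 gave 0.35 and 0.05, neither past the threshold, so the sign differs between probe sets.

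ugt-23 had 768.9, 608.7 and 666.7 in the mutant and 782.9, 733.6 and 710.9 in wild type, a difference of -0.13 with an interval from -0.39 to 0.13. ugt-58 had 610.4, 520.2 and 522.8 in the mutant and 706.3, 541.1 and 564.9 in wild type, again -0.13, with an interval from -0.44 to 0.18. In both genes the groups overlapped.

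ugt-60 had 372.8, 313.6 and 367.1 in the mutant and 332.1, 460.7 and 398.0 in wild type, with overlapping groups, a difference of -0.17 and an interval from -0.50 to 0.17. For ugt-5 the mutant arrays agreed closely at 333.9, 332.1 and 338.7, while wild type ranged over 254.2, 387.4 and 420.2, so that the mutant lay inside the wild type range. The difference of ugt-5 was -0.05, and it turned to 0.04 without wild type replicate 2 and to 0.09 without wild type replicate 3.

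Some members are known from earlier work in worms, among them ugt-22, which has been tied to the response to the anthelmintic albendazole. ugt-22 had 130.5, 149.4 and 153.8 in the mutant and 167.1, 168.3 and 175.6 in wild type. Every mutant array lay below the wild type arrays, by a small margin, and the difference was -0.24 (SE 0.09, limma adjusted p = 0.225), or 1.18-fold lower. ugt-9 had 76.1, 57.2 and 68.5 in the mutant and 59.5, 91.9 and 70.1 in wild type, with overlapping groups. Its difference was -0.12 with an interval from -0.56 to 0.31, and it turned to 0.05 without wild type replicate 2. ugt-16 was dim, with a difference of 0.37 (limma adjusted p = 0.237). ugt-63 was dim too, with 31.6, 23.8 and 24.2 in the mutant and 44.3, 32.6 and 22 in wild type, overlapping groups and a difference of -0.27 (limma adjusted p = 0.625).

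The position of the genes was compared with their values, using neighbour order from a gene table of assembly WBcel235. Of the 62 genes 39 lie on chromosome V, 11 on IV, 5 on I, 4 on X, 2 on III and 1 on II. Counting genes with at most 1 other protein-coding gene between them, 35 of the 62 fell into 12 runs, and 2 of the 3 genes that rose were among these. Within a run the members often differed from each other. In the 4-gene run of ugt-5, ugt-4, ugt-6 and ugt-3 the differences were -0.05, -0.11, 0.79 and -0.02. ugt-3 was flat at 19, 19.1 and 19.4 in the mutant and 19.2, 19.8 and 19.3 in wild type, below the yeast control level.

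The longest run, of 8 genes with 7 measured here, holds ugt-12, ugt-11, ugt-9, ugt-10, ugt-8, ugt-14 and ugt-13. All of these other than ugt-13 differed by between -0.21 and 0.11. On chromosome IV, ugt-43 lay beside ugt-44 with a difference of 0.10 (interval -0.09 to 0.29) against the 1.21 of its neighbour, but ugt-43 was dim. ugt-47, next to ugt-17, differed by -0.09 and was dim as well.

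The run that holds ugt-18 had positive differences in all its members. So did the runs of ugt-43 and ugt-44, of ugt-39, ugt-41 and ugt-36, and of ugt-1 and ugt-2. After ugt-18 its run continues with ugt-16 at 0.37 and ugt-15 at 0.33 (limma adjusted p = 0.488). ugt-16 had 38.4, 37 and 43.2 in the mutant and 27.6, 37.9 and 26.9 in wild type, with wild type replicate 2 inside the mutant range. ugt-15 had 28.5, 44.5 and 36.6 in the mutant and 21.5, 34.1 and 32.1 in wild type, with overlapping groups. Both ugt-16 and ugt-15 were dim. The run of ugt-26, ugt-27, ugt-28 and ugt-25 on chromosome I had negative values throughout, at -0.56, -0.04, -0.15 and -0.14, none past the threshold. Of the 11 runs with at least 2 measured members, 4 held both signs. Neighbouring copies can share sequence, and cross-binding of probes was not tested.

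**Figure D3:**
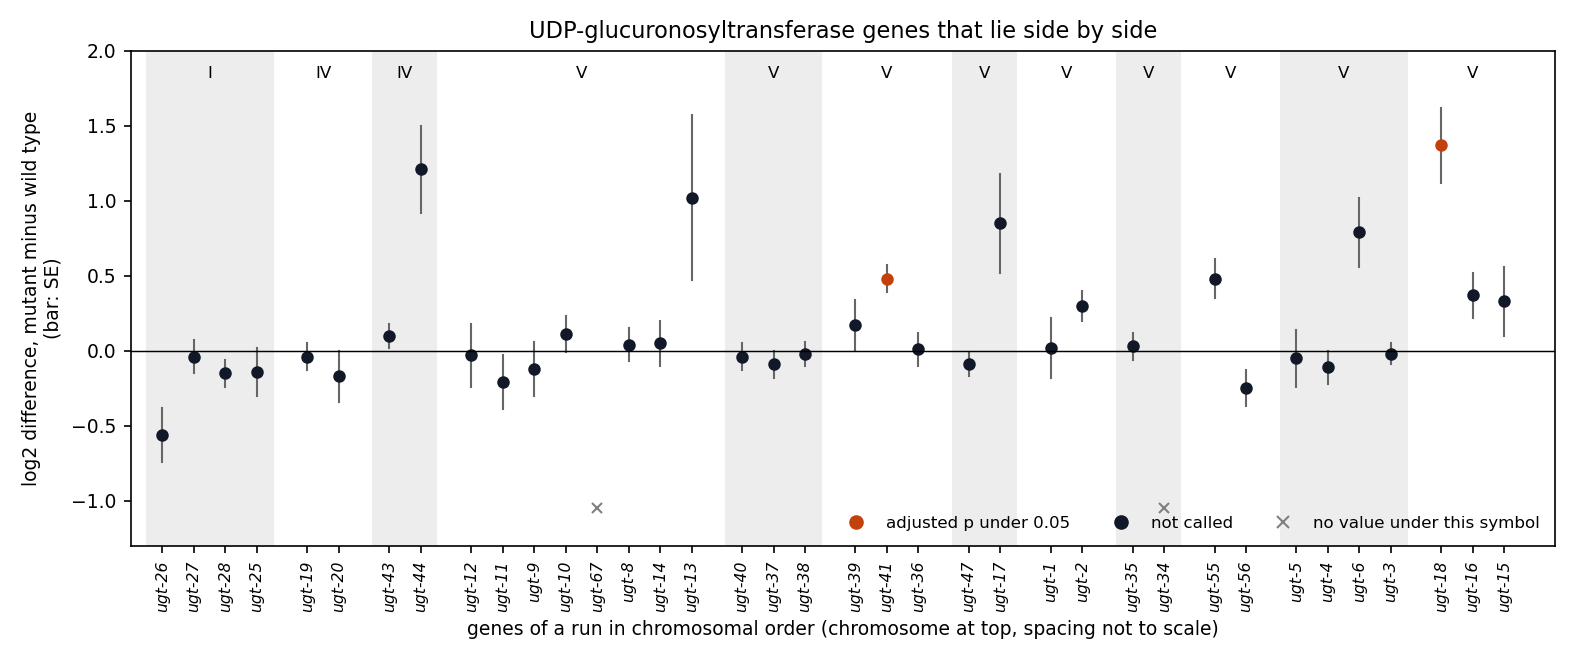
Log2 difference, mutant minus wild type, with its SE (bars), for ugt genes that lie side by side, in the order of the gene table, with the chromosome at the top of each run. Crosses at the bottom mark genes with no value under their symbol and carry no level. In several runs 1 gene has a larger positive difference than its neighbours. Among these genes ugt-18 and the dim ugt-41 are past the threshold, and ugt-44, ugt-13, ugt-17 and ugt-6 are not. ugt-13 has the widest bar, and ugt-43 and ugt-47, beside ugt-44 and ugt-17, are dim.

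The replicates of the mutant were not alike. The median deviation of the 62 genes from their mean over the 6 arrays was 0.03, -0.07 and -0.04 on mutant replicates 1, 2 and 3, against 0.00, 0.03 and 0.04 for wild type. Among the 7 genes with the largest positive differences or a call, mutant replicate 1 was the lowest mutant array for ugt-18, ugt-44, ugt-17, ugt-6 and ugt-41 and the highest for ugt-13 and ugt-64.

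**Figure D4:**
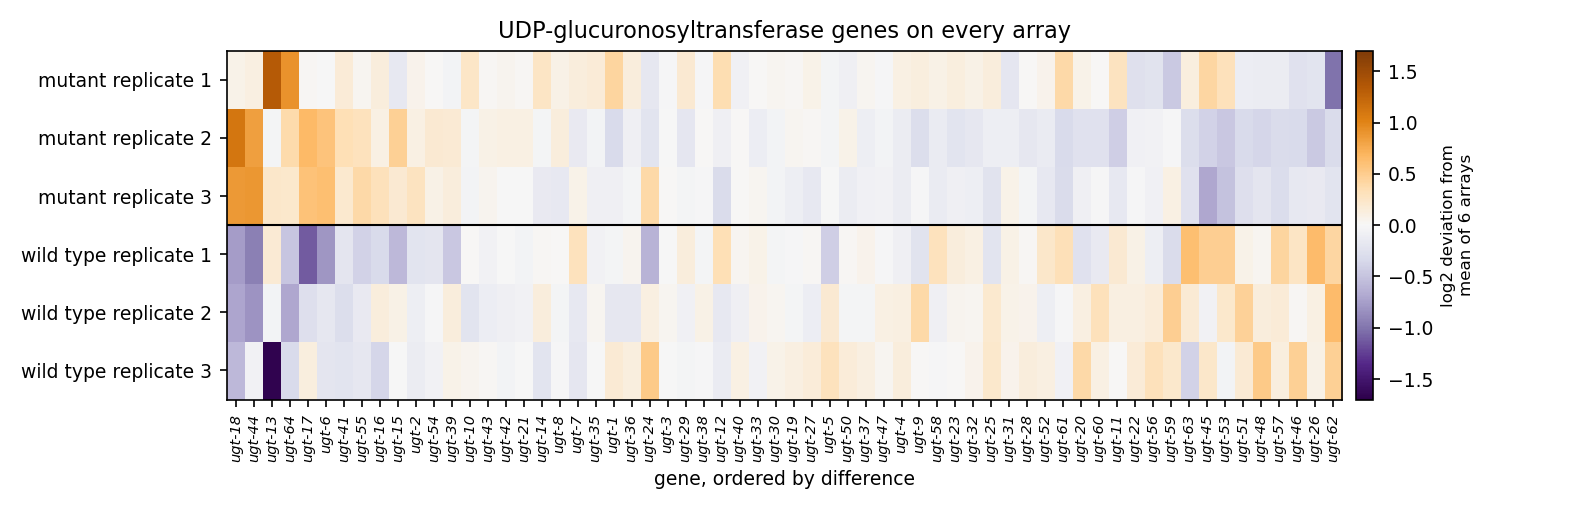
Deviation of each of the 62 ugt genes from its own mean over the 6 arrays (colour, log2 scale), with arrays in rows and genes ordered from the most positive to the most negative difference. Mutant replicate 1 stands apart from mutant replicates 2 and 3 for ugt-18, ugt-44, ugt-13, ugt-64 and ugt-62, and most genes in the middle stay near 0 on every array.

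Markers of tissues and stages also differed between arrays. Intestinal markers, measured for 13 of 13 genes, none at or below the yeast control level, had summed intensities of 13309, 19331 and 18572 in the mutant and 14860, 11870 and 12300 in wild type. Their median difference was 0.04, and 1 rose, the intermediate filament gene ifc-2, at 1.44 (limma adjusted p = 0.038). At an unadjusted p under 0.05 in limma, 5 of the 13 were higher and 2 lower. Over all genes, 10% were higher and 9.67% lower at that level, and the same shares apply to the lists that follow. Like ugt-18, ifc-2 had its lowest mutant value on replicate 1, with 492.1, 970.5 and 887.2 in the mutant and 323.3, 276.5 and 235.7 in wild type. Maternal transcripts of early embryos (14 of 14 measured) summed to 24623, 18432 and 18518 in the mutant and 24826, 25758 and 20982 in wild type, and the first zygotic transcripts (10 of 10) to 6113, 3859 and 4244 in the mutant and 5846, 6041 and 6221 in wild type. None of these maternal and zygotic genes passed limma's threshold, while 3 of each were lower and 0 higher at an unadjusted p under 0.05. Their median differences were -0.26 for the maternal and -0.34 for the zygotic genes. Epidermal markers (7 of 8 measured) summed to 7588, 8468 and 8230 in the mutant and 9717, 8817 and 9807 in wild type, with a median difference of -0.24. rol-6, a cuticle collagen gene, rose by 1.16, and che-14 and elt-3 fell by 0.66 and 0.60 (limma adjusted p = 0.0143, 0.0395 and 0.0292). The part of tissue or stage makeup in the differences of the ugt genes was not tested, and in whole embryos fewer cells of a type and less RNA per cell cannot be told apart.

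Adult tissue, neurons and muscle were checked in the same way. Genes of adult intestine and adult cuticle (7 of 8 measured, 2 of them at or below the yeast control level) had sums of 382, 424 and 386 in the mutant and 388, 365 and 367 in wild type, with 1 rise, that of the yolk protein gene vit-1 at 0.58 (limma adjusted p = 0.0426). Neuronal markers (9 of 9) summed to 7840, 10912 and 10661 in the mutant and 6461, 7189 and 7218 in wild type, with a median difference of 0.18. The neuropeptide-processing genes egl-3 and egl-21 rose by 1.52 and 1.42 (limma adjusted p = 0.0278 and 0.0182). No other neuronal marker had an unadjusted p under 0.05 in limma. Much of the difference in the sums came from these genes. egl-21 alone had 1232.9, 2073.9 and 2035.9 in the mutant and 658.7, 683.9 and 597.4 in wild type. Body wall muscle markers (5 of 6) summed to 4077, 6787 and 7079 in the mutant and 5612, 5053 and 3738 in wild type. None of these muscle genes passed limma's threshold, while 1 was higher and 1 lower at an unadjusted p under 0.05, and their median difference was 0.33.

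Lists of genes that act beside the ugt genes had either 0 calls or a share above the 3.67% of all genes. The share was 7.14% for cytochrome P450 genes, 7.32% for glutathione S-transferases and 6.9% for short-chain dehydrogenases. Each share rests on a small number of genes, and no list was tested as a set. Of 70 cytochrome P450 (cyp) genes, which oxidize foreign compounds before conjugation, 4 rose and 1 fell, or 7.14%, with a median difference of 0.00. The largest rise was that of cyp-32A1 at 1.95 (SE 0.23, limma adjusted p = 0.01), with 101.1, 155.0 and 147.5 in the mutant and 37, 42.3 and 25.7 in wild type, where it was no brighter than the yeast controls. cyp-13A5 and cyp-36A1 rose by 1.52 and 0.92, also with wild type means at or below that level. The other 2, named after their values were seen, were cyp-33C9, which rose by 0.74, and cyp-34A1, which fell by 0.54.

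Glutathione S-transferases (gst) conjugate glutathione in place of a sugar. Of 41 measured, 3 rose and 0 fell, or 7.32%, with a median difference of 0.19. At an unadjusted p under 0.05 in limma, 10 of the 41 were higher and 0 lower, against 10% and 9.67% of all genes. gst-22 rose by 1.86 (SE 0.19, limma adjusted p = 0.00606), with 160.3, 239.4 and 253.1 in the mutant and 63.9, 59.9 and 52.8 in wild type. gst-15 and gst-24 rose by 1.53 and 1.04. All 3 had their lowest mutant value on replicate 1.

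Among 29 short-chain dehydrogenase genes (dhs and sdr) dhs-14 and dhs-31 rose by 1.22 and 0.98, with 6.9% called and a list median of -0.06. In wild type both were no brighter than the yeast controls, so these differences may be understated. None of 28 ABC transporter genes (pgp, mrp and haf), whose proteins pump conjugates and other compounds out of cells, passed limma's threshold. At an unadjusted p under 0.05 in limma, 8 of the 28 were higher and 3 lower, against 10% and 9.67% of all genes. The median of the transporter list was 0.12. Its largest differences were 0.80 for mrp-2 (limma adjusted p = 0.269), with overlapping groups, and 0.73 for haf-2 (limma adjusted p = 0.0537).

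The supply and other uses of UDP-glucuronate were measured by 9 of 10 listed genes, which build proteoglycans or make the sugar donor. Of these 0 passed limma's threshold, with 1 higher and 1 lower at an unadjusted p under 0.05 and a median of -0.10. The largest differences were 0.52 for mig-22 (limma adjusted p = 0.0587) and 0.33 for rib-2 (limma adjusted p = 0.259). Both genes encode polymerases of proteoglycan chains. Of 13 regulators of detoxification genes 0 passed either, with 1 higher and 1 lower at an unadjusted p under 0.05 and a median of -0.02. The transcription factor gene skn-1 differed by 0.44 (limma adjusted p = 0.247) and the nuclear receptor gene nhr-8 by -0.37 (limma adjusted p = 0.0774).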

How the data were processed

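RNA of 6 embryo samples, 3 mutant and 3 wild type, had been hybridised to 1 array each. The authors deposited normalized intensity values on a linear scale, 1 per probe set and array, made with Affymetrix Expression Console, per the submitters' processing notes. For its version, summarization and background steps the entry is: not given in the sources used here. A deposited series matrix holds the log2 of the same values, equal within 5.66e-06. Array medians were 113.9 to 127.1, so the arrays share a scale on which a change in total messenger RNA would not be seen.

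The table has 22625 probe sets, from which 77 controls were dropped, and 20732 had 1 gene. The gene table of assembly WBcel235 gave current names for 16832 of the 17337 genes, the others keeping the file's name, and the chromosomes and neighbours of all 62 ugt genes. For each gene the brightest probe set was used. The probe set labelled ugt-35 has an identifier, F29F11.2, that the table now names ugt-34. Log2 values, with no pseudocount or filter, were fitted in R 4.3.3 with limma 3.58.1 (lmFit, eBayes, 2-sided tests, no covariates) and adjusted after Benjamini-Hochberg over all genes, with a threshold of 0.05. The fit was tested on simulated data.

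The genes, lists and tests were chosen with earlier results of these data known. Named are ugt genes past the threshold, the 6 largest differences each way, the 6 highest intensities, ugt-9, ugt-16, ugt-22 and ugt-63 (known from earlier work in worms), those whose probe sets disagree in sign, and, per list, up to 3 genes past the threshold or the 2 largest. Other ugt genes named in runs of neighbours were chosen after their values were seen. Other settings tried were a block for the replicate number, fits without each array and without both arrays numbered 1 (known from earlier results), quantile normalization, centring on array medians, filters that drop the dimmest 25% or 50%, adding 16 as a pseudocount, eBayes with trend and robust options, weights per array, averaging a gene's probe sets, the series matrix and a 2-fold minimum.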

Additional observations from a re-analysis of the deposited data

How the results depend on the processing

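The count of ugt genes past the threshold, 3 higher and 0 lower, depended on the setting. Leaving out single arrays gave 0 to 6 higher and 0 to 3 lower, with medians from -0.08 to -0.03, where 0.485% to 11.4% of all genes passed. Leaving out both arrays numbered 1 gave 7 and 7, with a median of -0.08, where 17.3% of all genes passed, against 3.67% in the fit reported. Array weights gave 8 higher and 5 lower, with 20.4% of all genes past the threshold, and an intensity trend with a robust fit gave 5 and 1, with 4.8%. Quantile normalization gave 2 and 1, with 4.08% of all genes past the threshold. Median centring gave 3 and 1, with 4.67%, and a median of -0.11, where the median of all genes was also -0.11. Without the dimmest 25% of probe sets 2 of 44 were higher and 1 lower, with a median of -0.12 against -0.06 for all genes kept. Without the dimmest 50% 1 of 19 was higher and 1 lower, with a median of -0.16 against -0.09. Of all genes kept by these filters, 5.49% and 4.74% passed. The pseudocount of 16 left 0 and 0, with 2.59% of all genes past the threshold, and a 2-fold minimum left 2 and 0.

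The replicate block gave 5 higher and 1 lower, where 4.52% of all genes passed. Same-numbered arrays deviated together with correlations of 0.21, 0.01 and 0.14, so the numbers were not taken to pair the samples. Past the threshold were ugt-18 in 10 of 16 alternatives, ugt-64 in 10 of 17 and ugt-41 in 7 of 15, and ugt-62 in 9 of 17, with adjusted p-values from 0.000686 to 0.172, 0.00569 to 0.152, 0.00443 to 0.154 and 0.00552 to 0.176. These genes have no second probe set. For them the series matrix and the averaging of probe sets nearly repeat the reported fit and add no separate check. Of 363 values of 22 named genes under 17 settings 4 changed sign: ugt-5 (-0.27 to 0.09 over fits without single arrays, with 0.04 and 0.09 without wild type replicate 2 or 3), ugt-9 (-0.27 to 0.05, with 0.05 without wild type replicate 2), and ugt-50 with the mean of all its probe sets (0.10). None of these was past the threshold. The cause of these shifts was not tested. For the 21 dim members, signal close to that of the yeast controls limits what can be seen.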

Other observations

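Probe sets of 7 further family members or relatives lay outside the rule, because their symbol cell held a protein class, several genes, another name or nothing. By their identifiers, the gene table names H23N18.4, C23G10.6, AC3.2 and F08G5.5 as ugt-67, ugt-66, ugt-49 and ugt-65, while the deposited table lists F08G5.5 under clec-184. The cells of H10D18.6 and K04A8.10 hold the name of the enzyme class, and a probe set shared by ugt-22 and Y43D4A.2 has several genes. In the limma fit over all probe sets 0 of the 7 passed, 0 had an unadjusted p under 0.05, and the lowest adjusted p was 0.275. That was the value of ugt-67, which lies in the longest run and had 60.3, 62.8 and 59.1 in the mutant and 73.6, 69.5 and 65.5 in wild type, with no overlap and a difference of -0.19 (95% interval -0.39 to 0.01). The probe set shared by ugt-22 and Y43D4A.2 gave -0.04 (interval -0.29 to 0.20), against -0.24 for the one assigned to ugt-22 alone. The other 5 differed by between -0.06 and 0.08.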
